A study of Mus musculus with 18 samples.

Results

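Bax and Bak1 encode BAX and BAK, the pore proteins through which the mitochondrial route of apoptosis opens the outer mitochondrial membrane. They were taken by gene name from a pooled CRISPR library and are 2 of its 76 target genes. With 3 sgRNAs each, they account for 6 of its 252 sgRNAs, of which 24 are non-targeting.

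The library was carried by sensBa/F3 cells, a derivative of Ba/F3, a mouse pro-B line kept in interleukin-3. The cells were either ITPK1-WT or had lost the inositol phosphate kinase ITPK1 (ITPK1-KO, 6 clones without lentiviral integration, pooled). Each background was transduced as 1 pool, grown for 10 days, stained (ITPK1-WT with CT Violet, ITPK1-KO with CT Yellow), mixed in equal parts and injected into the peritoneum of 8 hCD89-transgenic mice at 20000000 cells per mouse. Mice 1 to 4 then received PBS (vehicle) and mice 5 to 8 an anti-hHer2 IgA, and viable cells were lavaged after 16 h and sorted by dye.

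This gave ITPK1-WT vehicle, ITPK1-KO vehicle, ITPK1-WT IgA and ITPK1-KO IgA groups of 4 mice each, plus 1 library of each background from before injection, 18 libraries in all. hCD89 is the human Fc receptor for IgA, found on myeloid cells such as neutrophils. The screen asked which sgRNAs become more abundant among the cells that outlive IgA treatment, and whether that depends on ITPK1. All mice shared the same pair of transduced pools, and p-values describe only how mice given those pools differed. Dye and genotype cannot be told apart. sgRNA counts from genomic DNA hold no marker genes, so the cell type could not be checked, nor do they show how much BAX or BAK protein each sgRNA removed.

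In healthy cells BAX sits mostly in the cytosol and BAK in the outer mitochondrial membrane, both restrained by BCL2-type proteins. BH3-only proteins such as BID, BIM and PUMA release or activate them, whereupon either protein can form oligomers that let cytochrome c escape. Cytochrome c then assembles APAF1 and caspase-9 into the apoptosome, which activates further caspases. In many cell types BAX and BAK can stand in for each other, so that removing either gene alone can leave the pathway open.

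The sgRNA sequences are shown because each result rests on these designed sequences, whose behaviour differed within a gene. They are written 5′ to 3′, and capitals mark the 12 bases that would lie next to the PAM, the stretch in which mismatches are tolerated least.
Bax sg-1: ggacacggACTCCCCCCGAG
Bax sg-2: gtttcatcCAGGATCGAGCA
Bax sg-3: ccagttcaTCTCCAATTCGC
Bak1 sg-1: gcccacagCCTATTTAAGAG
Bak1 sg-2: ggaactctGTGTCGTAGCGC
Bak1 sg-3: ggtagacgTACAGGGCCAGA

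Bax sg-1 had a GC content of 75.0% and held a run of 6 C, a length of run found in only 2 of the 252 sgRNAs. The GC content was 50.0% for Bax sg-2, Bax sg-3 and Bak1 sg-1, and Bak1 sg-2 and Bak1 sg-3 had 12 G or C among their 20 bases, around the library median of 50.0%. No other sgRNA of the library came closer than 8 mismatches to any of the 6, so reads could not easily be confused between them. None of the 6 matched the RefSeq promoter window (GRCm38.p6) of its own gene on either strand.

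Libraries held 317564 to 808586 reads, from 657000 to 2000000 sorted cells where recovered from mice. Each vehicle library came from 2000000 sorted cells. In IgA mice 5 to 8 the sorted cells were 1200000, 2000000, 1000000 and 657000 for ITPK1-WT. For ITPK1-KO they were 1670000, 2000000, 1500000 and 955000. The number of sorted cells thus moved with the arm, and its part in the IgA effects was not tested. The 6 sgRNAs had between 973 and 5495 reads per library. Counting alone gives an sgRNA a coefficient of variation of 1.59% to 2.62%, and the spread between mice of a group had a median of 2.90% (0.916% to 5.14%) and exceeded the counting error in 18 of the 24 combinations of sgRNA and group. Reads carry no molecular identifiers, so counting error is a lower limit. Abundances below are normalised CPM, that is, reads relative to the library total after TMM scaling, and a fold change is a log2 ratio. Summed over the 3 sgRNAs, the spread between mice was 0.528% to 2.00%.

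Under TMM scaling, IgA left the summed abundance of Bax and Bak1 sgRNAs close to the vehicle level in ITPK1-WT cells. Each sum weights its sgRNAs by abundance, and Bax sg-3 averaged 7054 of the 14602 normalised CPM of Bax in vehicle mice. Bax sgRNAs together measured 14449, 14578, 14949 and 14434 normalised CPM in vehicle mice 1 to 4 and 14700, 14681, 14277 and 14669 in IgA mice 5 to 8. The arms overlapped, with IgA mouse 7 lowest of all 8. The log2 fold change was −0.0083 ± 0.017 (SE, n = 4 mice per arm; 95% interval −0.047 to 0.029), with an adjusted p of 0.70 in edgeR's quasi-likelihood test with Benjamini-Hochberg adjustment over all genes.

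Bak1 sgRNAs together measured 11965, 12190, 11754 and 11655 normalised CPM in the vehicle mice and 12149, 12204, 12199 and 12303 in the IgA mice. The IgA mice lay at the upper end, but vehicle mouse 2 fell among them. The log2 fold change was 0.032 ± 0.018 (SE; 95% interval −0.0074 to 0.071; adjusted p = 0.18, edgeR). Neither gene was called, against 36.8% of the 76 genes, and neither had arms that did not overlap, against 34.2%. By fold change Bak1 stood 24th and Bax 41st from the highest of 76 genes, and their neighbours in that order (Diablo and Ifnar1 beside Bak1, Mlkl and Daxx beside Bax) differed from them by less than the SE.

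The reference used for scaling mattered here. The 24 non-targeting sgRNAs had a median log2 fold change of −0.059 under IgA in ITPK1-WT cells, and 8 of them were called lower and 1 higher. When libraries were scaled to them instead, Bak1 had a fold change of 0.084 with an adjusted p of 0.0038 in edgeR's test, and Bax turned to 0.043 with an adjusted p of 0.067. The same change moved the split over all genes from 16 higher and 12 lower to 34 higher and 2 lower.

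Within each near-level sum the fold changes of the sgRNAs differed in sign, but neither gene had sgRNAs called in both directions. Bak1 sg-1 measured 2864, 3054, 2787 and 2748 normalised CPM in vehicle mice 1 to 4 and 3191, 3106, 3394 and 3402 in IgA mice 5 to 8. All IgA mice were above all vehicle mice. It rose by 0.18 ± 0.044 on the log2 scale (SE; 95% interval 0.089 to 0.28; adjusted p = 0.0019, edgeR), and no non-targeting sgRNA had a higher fold change. Among the IgA mice it was higher in mice 7 and 8, with 1000000 and 657000 sorted cells. It was lower in mice 5 and 6, with 1200000 and 2000000. The part of cell number in this rise was not tested.

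Bax sg-3 measured 6918, 7239, 7086 and 6975 normalised CPM in the vehicle mice and 6645, 6825, 6601 and 6421 in the IgA mice. Here every IgA mouse was below every vehicle mouse. It fell by 0.096 on the log2 scale (SE 0.029; 95% interval −0.16 to −0.034; adjusted p = 0.014, edgeR), but 7 of the 24 non-targeting sgRNAs fell further. Scaled to those sgRNAs the value was −0.044 (adjusted p = 0.19), and without mouse 2 the adjusted p was 0.055.

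The other 4 sgRNAs were not called and their arms overlapped. Bax sg-1 and Bax sg-2 had log2 fold changes of 0.084 (adjusted p = 0.10, edgeR) and 0.054 (adjusted p = 0.28), opposite in sign to Bax sg-3, and on the non-targeting scale both were called (0.14, adjusted p = 0.0097, and 0.11, adjusted p = 0.039). Bax sg-1 was also called without mouse 6 (adjusted p = 0.030). Bak1 sg-2 had −0.052 and Bak1 sg-3 had 0.010. In total 2 of the 6 sgRNAs were called, 1 in each direction, against 27.8% of all sgRNAs tested, and the same 2 had arms that did not overlap, against 22.6%. Of the 24 non-targeting sgRNAs, 9 were called in the same comparison. Those shares leave the 6 sgRNAs near the background of the library. Sign also differed among the sgRNAs of most other genes, since all 3 agreed in sign in 34 of the 76.

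A sequencing sample sheet, inferred from the sample numbers in the labels' read-file names, moves with the arm. By that inference sheet 1 held mice 1 to 5 and sheet 2 held mice 6 to 8 together with both starting libraries. No label names a sheet, and whether the sheets mark separate runs is not given. With the sheet as a term, which leaves IgA mouse 5 against the vehicle mice of its sheet, Bak1 sg-1 kept a fold change of 0.14 (adjusted p = 0.27) and Bax sg-3 one of −0.100 (adjusted p = 0.26), and the sheet's part in the called values was not tested further.

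**Figure D1:**
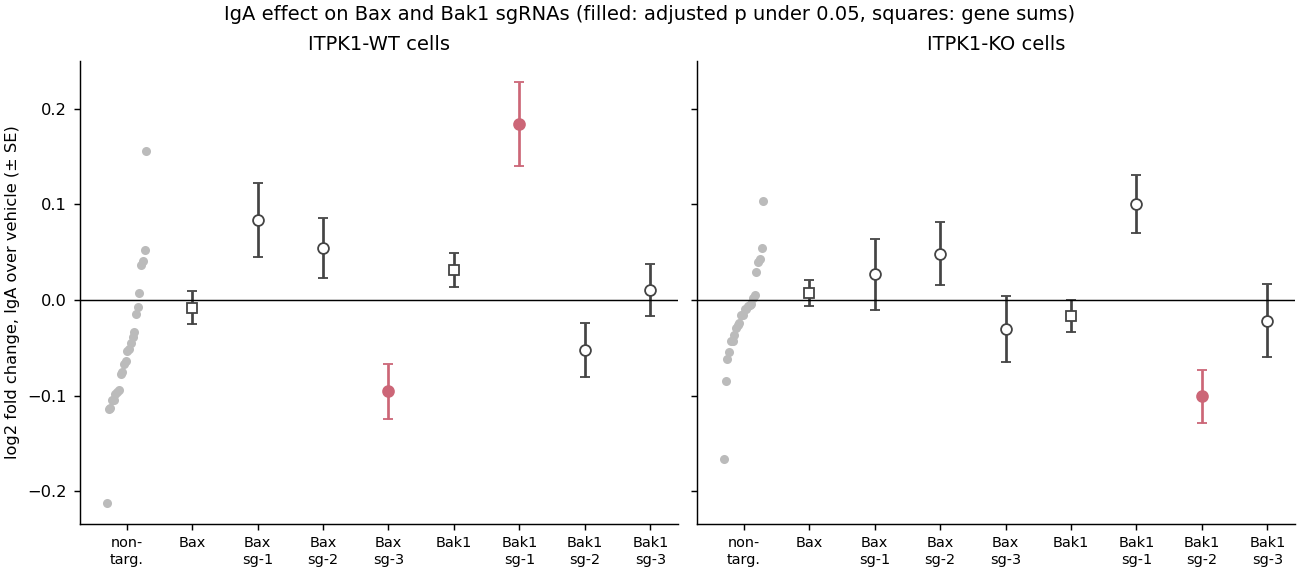
Log2 fold change of IgA over vehicle (vertical axis, bars are the SE, n = 4 mice per arm) for the Bax and Bak1 sums (squares) and their 6 sgRNAs (circles) in ITPK1-WT cells (left) and ITPK1-KO cells (right), with the 24 non-targeting sgRNAs in grey. Filled red points passed an adjusted p of 0.05: Bak1 sg-1 and Bax sg-3 at left and Bak1 sg-2 at right, while the sums lie between −0.016 and 0.032.

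In ITPK1-KO cells neither sum moved beyond its error under IgA. Bax sgRNAs together measured 12874, 12897, 12956 and 12745 normalised CPM in vehicle mice and 13054, 12785, 12956 and 12817 in IgA mice. The arms shared the same range, and the log2 fold change was 0.0070 ± 0.014 (SE, n = 4 mice per arm; 95% interval −0.025 to 0.037; adjusted p = 0.78, edgeR). Bak1 measured 11861, 12105, 11863 and 11864 in vehicle mice and 11547, 11964, 11872 and 11695 in IgA mice. The arms again overlapped, with a log2 fold change of −0.016 ± 0.017 (SE; 95% interval −0.054 to 0.021; adjusted p = 0.60, edgeR). Of all genes in ITPK1-KO cells, 13.2% were called and 21.1% had arms that did not overlap, and Bax and Bak1 were among neither.

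Among the sgRNAs, Bak1 sg-2 passed the threshold narrowly. It measured 4178, 4094, 4232 and 4157 normalised CPM in vehicle mice and 4031, 3866, 3793 and 3806 in IgA mice, so that all IgA mice were below all vehicle mice. It fell by 0.10 on the log2 scale (SE 0.027; 95% interval −0.16 to −0.041; adjusted p = 0.048, edgeR). The call was lost on leaving out any mouse but mouse 5 (adjusted p up to 0.18), on the non-targeting scale (−0.086, adjusted p = 0.12), and with the sample sheet as a term (−0.044, adjusted p = 0.83).

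Bak1 sg-1, the sgRNA that rose in ITPK1-WT cells, measured 2992, 2991, 3054 and 3044 in vehicle mice and 3062, 3285, 3310 and 3268 in IgA mice of the ITPK1-KO background. The arms did not overlap, though IgA mouse 5 stood just above the highest vehicle mouse. The fold change was 0.10 ± 0.030 (SE; adjusted p = 0.13, edgeR), and without mouse 5 it was 0.12 with an adjusted p of 0.044. The 3 Bax sgRNAs ran from −0.030 (sg-3) to 0.049 (sg-2), none called. In all, 1 of 6 sgRNAs was called against 10.4% of the library, 1 of 6 (Bak1 sg-1) had all IgA mice above all vehicle mice against 6.37%, and 1 of 6 (Bak1 sg-2) had them all below against 5.58%.

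**Figure D2:**
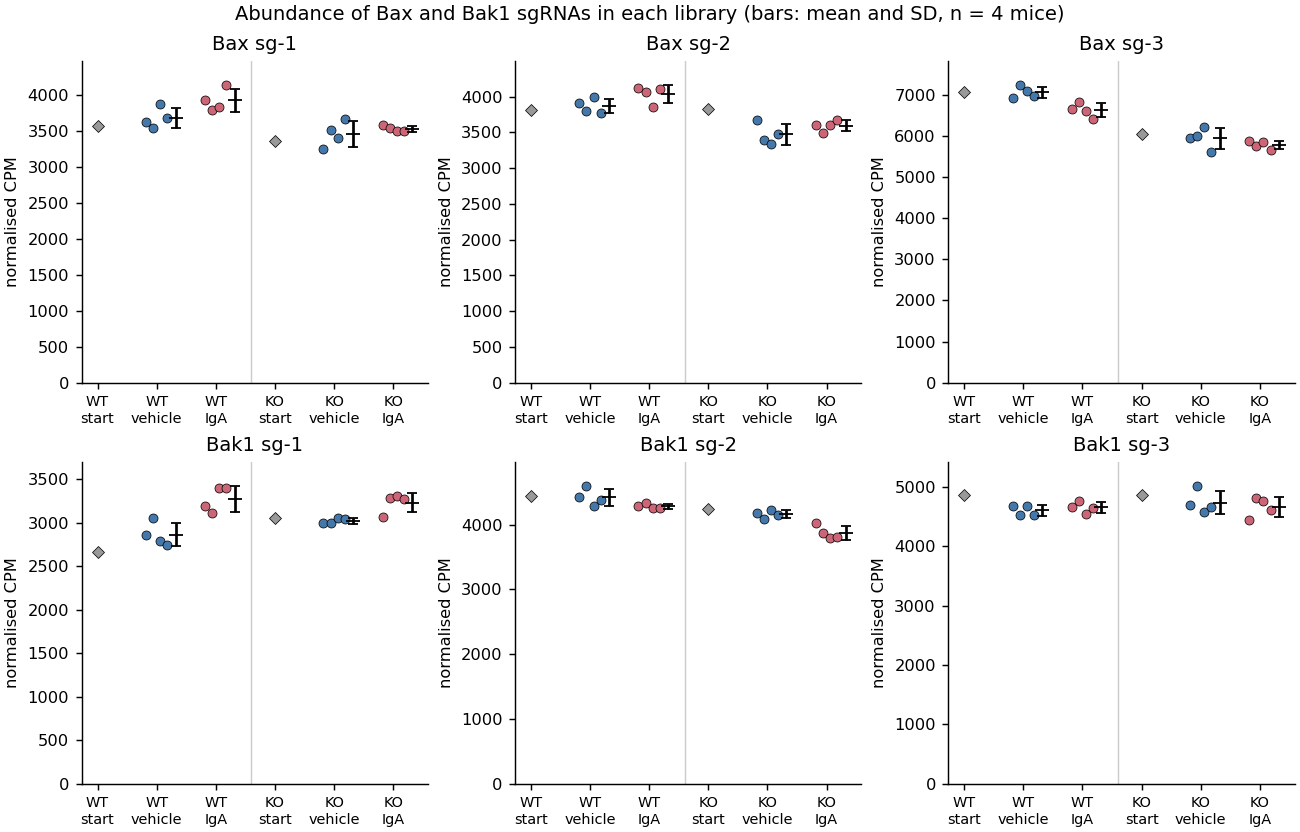
Normalised CPM (vertical axis, from 0) of each Bax and Bak1 sgRNA in all 18 libraries, with ITPK1-WT groups left and ITPK1-KO groups right of the grey line. Circles are mice, diamonds are the single libraries from before injection (start), and black bars give the mean and SD of 4 mice. Bax sg-3 averages 7054 in vehicle mice of the ITPK1-WT and 5940 of the ITPK1-KO background, and Bak1 sg-1 is higher in the IgA mice of ITPK1-WT cells.

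Whether ITPK1 altered the response to IgA was tested as the difference of both IgA effects (ITPK1-KO minus ITPK1-WT) in 1 fit of the 16 recovered libraries. None of the 6 sgRNAs was called, against 3.97% of all sgRNAs, and neither gene was, against 6.58% of genes. The difference for Bak1 was −0.054 ± 0.023 (SE, n = 4 mice per group; 95% interval −0.10 to −0.0059), with an unadjusted p of 0.049 and an adjusted p of 0.37 in edgeR's quasi-likelihood test. All 3 Bak1 sgRNAs had negative values, −0.089 for sg-1, −0.054 for sg-2 and −0.038 for sg-3. In this comparison all 3 sgRNAs agreed in sign in 26 of the 76 genes. For Bax the difference was 0.0094 ± 0.021 (SE; 95% interval −0.034 to 0.052; adjusted p = 0.82, edgeR), and it turned to −0.022 on the non-targeting scale, where the Bak1 difference was −0.085 (adjusted p = 0.094).

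Bax and Bak1 were also set against each other directly. The mean log2 abundance of Bax sgRNAs less that of Bak1 sgRNAs in ITPK1-WT cells was 0.26 ± 0.051 (SD, n = 4 mice) under vehicle and 0.23 ± 0.027 under IgA, an IgA effect of −0.034 (exact two-sided permutation test, p = 0.29). For ITPK1-KO cells it was 0.085 ± 0.0094 and 0.11 ± 0.034, an IgA effect of 0.024 (exact p = 0.20). The change of this difference between backgrounds was 0.058 (exact p = 0.11). All 3 tests had an adjusted p of 0.29, where the smallest p that 4 against 4 mice can give is 0.029. A difference between the pore proteins in their response to IgA was thus not resolved, and these values do not show that they respond alike.

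ITPK1 background, rather than IgA, separated the Bax libraries. Summed Bax sgRNAs in the recovered ITPK1-KO libraries averaged 88.3% of their ITPK1-WT abundance, and the groups did not overlap. Every recovered ITPK1-KO library lay at or below 13054 normalised CPM and every recovered ITPK1-WT library at or above 14277. Each background was 1 transduced pool, and what made the pools differ was not tested. Within a mouse, the ITPK1-KO library had 89.1%, 88.5%, 86.7% and 88.3% of the Bax abundance of the ITPK1-WT library in vehicle mice 1 to 4 and 88.8%, 87.1%, 90.8% and 87.4% in IgA mice 5 to 8. Bax was lower in 8 of 8 mice, by a mean of −0.18 ± 0.021 on the log2 scale (SD, n = 8 mice). How many of the 76 genes separated the backgrounds in this way, or were lower in 8 of 8 mice, was not counted. Whether the separation sets Bax apart is therefore not known.

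In vehicle mice the difference for Bax was −0.18 ± 0.015 (SE; 95% interval −0.22 to −0.15; adjusted p = 6.1e-13, edgeR), and in IgA mice it was −0.18 ± 0.015 (95% interval −0.21 to −0.14; adjusted p = 2.0e-12). The call held under every alternative run for it, including the non-targeting scale (−0.19 and −0.22). Differences between backgrounds were common in the library, with 47.4% of genes called in vehicle mice and 44.7% in IgA mice, so that the call by itself does not set Bax apart. By size Bax ranked 69th and 68th from the highest of the 76 genes. In vehicle mice the neighbours were Ifnar1 (−0.18 ± 0.029, SE) and Commd4 (−0.20 ± 0.035), neither of which differed from Bax by more than its own SE.

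For Bak1 the log2 difference within a mouse was −0.013, −0.010, 0.013 and 0.026 in vehicle mice 1 to 4. It was −0.073, −0.029, −0.039 and −0.073 in IgA mice 5 to 8. The values straddled equality in vehicle mice and were all below it in IgA mice. The fitted difference was 0.0016 ± 0.016 (SE; 95% interval −0.033 to 0.036; adjusted p = 0.96, edgeR) in vehicle mice and −0.052 ± 0.016 (95% interval −0.087 to −0.018; adjusted p = 0.019) in IgA mice. The latter call was lost without mouse 5 (adjusted p = 0.074) or without mouse 8 (adjusted p = 0.098), and on the non-targeting scale the value was −0.093 (adjusted p = 0.00033).

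All 3 Bax sgRNAs were lower in ITPK1-KO cells in 8 of 8 mice. In vehicle mice sg-3 had a log2 difference of −0.26 (SE 0.030; adjusted p = 5.0e-13, edgeR), sg-2 one of −0.16 (SE 0.032; adjusted p = 0.00048), and sg-1 one of −0.087 (SE 0.038; adjusted p = 0.084). Without mouse 4 the sg-1 value was −0.12 and was called (adjusted p = 0.044), and without mouse 3 it was −0.057 (adjusted p = 0.36). In IgA mice the 3 were −0.20, −0.17 and −0.15, all called, the highest adjusted p being 0.0010. Bak1 sg-2 was also lower in 8 of 8 mice, with −0.090 in vehicle mice (adjusted p = 0.032, lost without mouse 1, 2 or 4, up to 0.25, and with total counts, 0.050) and −0.14 in IgA mice (adjusted p = 0.00028). Bak1 sg-1 and Bak1 sg-3 were not called in either arm. That made 3 of 6 sgRNAs called in vehicle mice against 31.7% of the library and 4 of 6 in IgA mice against 34.9%, all lower in ITPK1-KO cells. Agreement in sign was frequent, since all 3 sgRNAs agreed in 37 of the 76 genes in vehicle mice and in 37 in IgA mice. The share of all sgRNAs that were lower in 8 of 8 mice was not counted.

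Non-targeting sgRNAs gave a scale for these differences. In vehicle mice they ran from −0.11 to 0.11, and none was as low as Bax sg-2 or Bax sg-3 while 1 was lower than Bax sg-1. In IgA mice they ran from −0.063 to 0.16, and all 24 were above each of the 3 Bax sgRNAs and Bak1 sg-2. Against an average trio of non-targeting sgRNAs, the Bax trio stood at 86.6% ± 1.2 (SD, n = 4 mice) in ITPK1-WT and 75.7% ± 1.1 in ITPK1-KO vehicle libraries. Bak1 stood at 70.5% ± 1.5 and 70.1% ± 0.87. These percentages depend on how much of each sgRNA entered the pool and do not rank the genes.

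**Figure D3:**
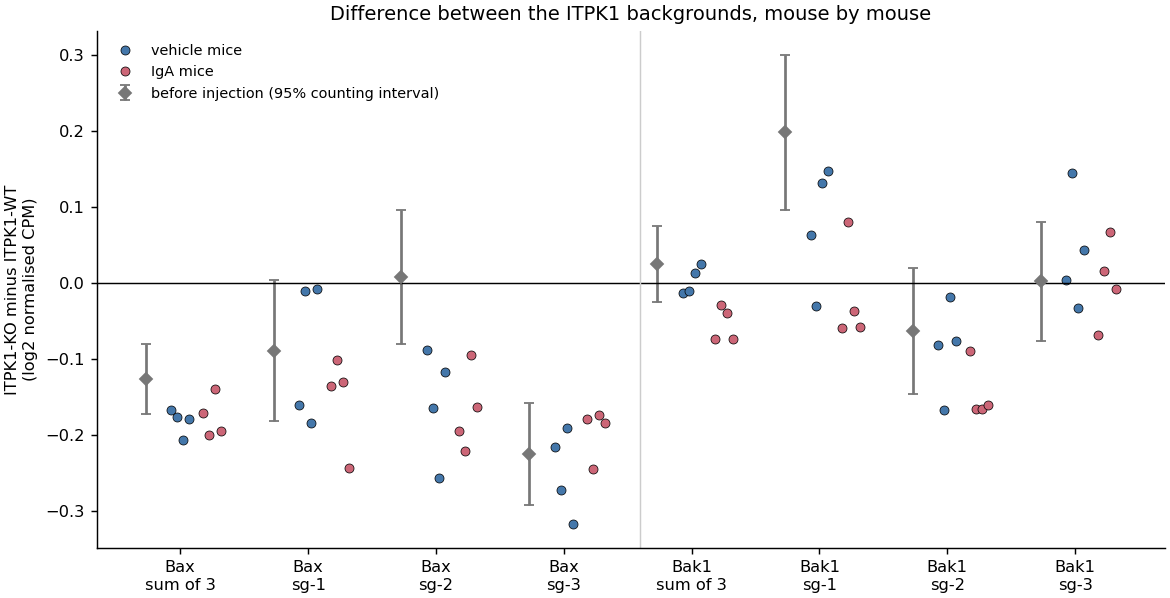
Log2 normalised CPM of the ITPK1-KO library less that of the ITPK1-WT library (vertical axis) for the summed sgRNAs and each sgRNA of Bax (left) and Bak1 (right). Circles are single mice (blue vehicle, red IgA) and grey diamonds are the libraries from before injection with a 95% counting interval. All 8 mice lie below 0 for Bax and for each of its sgRNAs, whereas Bak1 lies between −0.073 and 0.026.

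Before injection the Bax difference depended on the scale. With 1 library per background and so no test, summed Bax sgRNAs measured 14445 normalised CPM in the ITPK1-WT and 13232 in the ITPK1-KO pool, and Bak1 sgRNAs 11960 and 12170. The log2 difference was −0.13 for Bax (95% counting interval −0.17 to −0.080) and 0.025 for Bak1 (−0.025 to 0.075). Bax had the 10th lowest of 76 values. These intervals cover counting error only, not differences between cultures or transductions.

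The sgRNAs of Bax were unequal at that stage. Bax sg-3 stood at −0.23 (95% counting interval −0.29 to −0.16) and Bax sg-1 at −0.089 (−0.18 to 0.0039), close to their means in recovered cells of −0.22 ± 0.052 (SD, n = 8 mice) and −0.12 ± 0.081. Bax sg-2 stood at 0.0074 (−0.081 to 0.096) before injection and at −0.16 ± 0.061 afterwards, ranging from −0.26 to −0.088 in the 8 mice. For Bak1 sg-1 the values ran the same way, 0.20 (0.096 to 0.30) before injection and 0.030 ± 0.086 afterwards. A single starting library cannot separate a change in the mice from an error of that library.

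Relative to the median of the non-targeting sgRNAs, the difference before injection was −0.012 for Bax and 0.14 for Bak1, and as a share of all reads it was −0.094 and 0.054. Bax lay below Bak1 on each scale. Relative to the non-targeting median, Bax sg-1 stood at 0.0013, Bax sg-2 at 0.0975 and Bax sg-3 at −0.13 before injection. The sgRNA values given above, under TMM scaling, thus also depend on the scale.

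The change between injection and recovery was measured against the non-targeting median and, with 1 starting library per background, has no test. In ITPK1-WT cells Bax changed by 0.022 ± 0.044 (SD, n = 4 mice) in vehicle and 0.073 ± 0.041 in IgA mice, and Bak1 by 0.0086 ± 0.052 and 0.093 ± 0.051. In ITPK1-KO cells Bax changed by −0.12 ± 0.025 and −0.10 ± 0.020, and Bak1 by −0.10 ± 0.029 and −0.11 ± 0.016, below the start in all 8 mice. The 228 targeting sgRNAs had medians of 0.0021 and 0.049 with ITPK1 present and of −0.077 and −0.066 with ITPK1 deleted, so the library as a whole lay below its start in the latter. The sgRNAs of a gene were unequal here, with means of −0.22 for Bax sg-2 and −0.033 for Bax sg-1 in ITPK1-KO vehicle mice. As a share of all reads the ITPK1-KO shifts were −0.045 and −0.030 for Bax and −0.030 and −0.040 for Bak1.

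Across the 6 conditions, Bax thus ordered by background. ITPK1-WT vehicle (14602 ± 240, mean ± SD, n = 4 mice) and ITPK1-WT IgA (14582 ± 204) lay highest, next to the ITPK1-WT start, and did not differ beyond their spread. The ITPK1-KO start came next, followed by ITPK1-KO IgA (12903 ± 125) and ITPK1-KO vehicle (12868 ± 89.0), which also did not differ beyond their spread. For Bak1 the order was ITPK1-WT IgA (12214 ± 64.5), both starts, ITPK1-KO vehicle (11923 ± 121), ITPK1-WT vehicle (11891 ± 238) and ITPK1-KO IgA (11770 ± 186), in which the only tested pair that passed was that of its ends, ITPK1-WT IgA and ITPK1-KO IgA, with the dependence on single mice given above.

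The library also targets 15 other genes of the mitochondrial route, but none of the BCL2-type guardians and not Bok, the third pore former. Under IgA in ITPK1-WT cells 3 of the 15 rose and 3 fell and 9 were not called, against 36.8% of all 76 genes called, a share near that of the 15. Their median log2 fold change was −0.032 against −0.0033 for all 76 genes. Upstream of BAX and BAK, Bbc3 (PUMA, a BH3-only activator) rose by 0.083 (SE 0.018; adjusted p = 0.0016, edgeR), while Bid (−0.061, adjusted p = 0.012), which links death receptors to the mitochondria once cleaved, and Pmaip1 (NOXA, −0.060, adjusted p = 0.016) fell.

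Downstream of the pore, both apoptosome genes of the library rose, APAF1 by 0.070 (adjusted p = 0.0045, edgeR) and Casp9 by 0.052 (adjusted p = 0.022). CASP2, an initiator caspase, fell by 0.091 (adjusted p = 0.0016). Casp8, the death receptor caspase, had −0.032 (adjusted p = 0.18). On the non-targeting scale the 3 lower calls were lost and 5 genes were called higher. With the sample sheet as a term, only Bbc3 (0.10) and Casp9 (0.087) were called, while the fold changes of the others were no smaller (APAF1 0.079, Bid −0.083, CASP2 −0.094, Pmaip1 −0.071, adjusted p from 0.063 to 0.16). Under TMM scaling with no sheet term, Casp9 was not called without mouse 5 (adjusted p = 0.071, edgeR), nor Pmaip1 without mouse 4 or 7 (up to 0.095).

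In ITPK1-KO cells edgeR called 0 of these 15 genes under IgA, against 13.2% of all genes, where 3 had unadjusted p-values under 0.05, among them APAF1 (0.039) and CASP2 (−0.045) with unadjusted p-values of 0.027 and 0.0098. Bid had −0.031, Bbc3 0.031, Casp9 0.012 and Casp8 −0.0039 on the same scale. DESeq2 also called 0. On the non-targeting scale 2 were called, APAF1 among them, and CASP2 was called with a minimum mean of 500 reads. In the difference of IgA effects 0 of 15 were called by edgeR or DESeq2, against 6.58% of all genes in edgeR, with only Bcl2l11 at an unadjusted p under 0.05 (0.048).

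Between backgrounds, Bax had company in both directions. In vehicle mice APAF1 (0.11), Bad (0.082) and Birc2 (0.066) were higher in ITPK1-KO cells, and 3 genes were lower, Bbc3 (−0.37) among them, each by edgeR's test (highest adjusted p 0.019). These 6 of 15 compare with 47.4% of all genes called in vehicle mice and 44.7% in IgA mice, so the pathway genes were near the background of the library. Bad, a BH3-only sensitizer, lost its call without mouse 1 or 2 (up to 0.25) and, in IgA mice, without mouse 5 (0.082), and Birc2, an inhibitor of apoptosis protein, without mouse 2 (0.051). Bid (−0.034), Casp8 (−0.016) and Casp9 (0.018) were not called in vehicle mice. The same 6 genes were called in the same directions in IgA mice. On the non-targeting scale the 3 higher ones were no longer called in IgA mice, nor was Bad in vehicle mice (0.072, adjusted p = 0.054, edgeR). In IgA mice that scale called 0 of the 15 genes higher and 6 lower, with Bid and Casp9 among the lower. Before injection the log2 difference was −0.43 for Bbc3, 0.13 for Bad and 0.11 for APAF1.

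**Figure D4:**
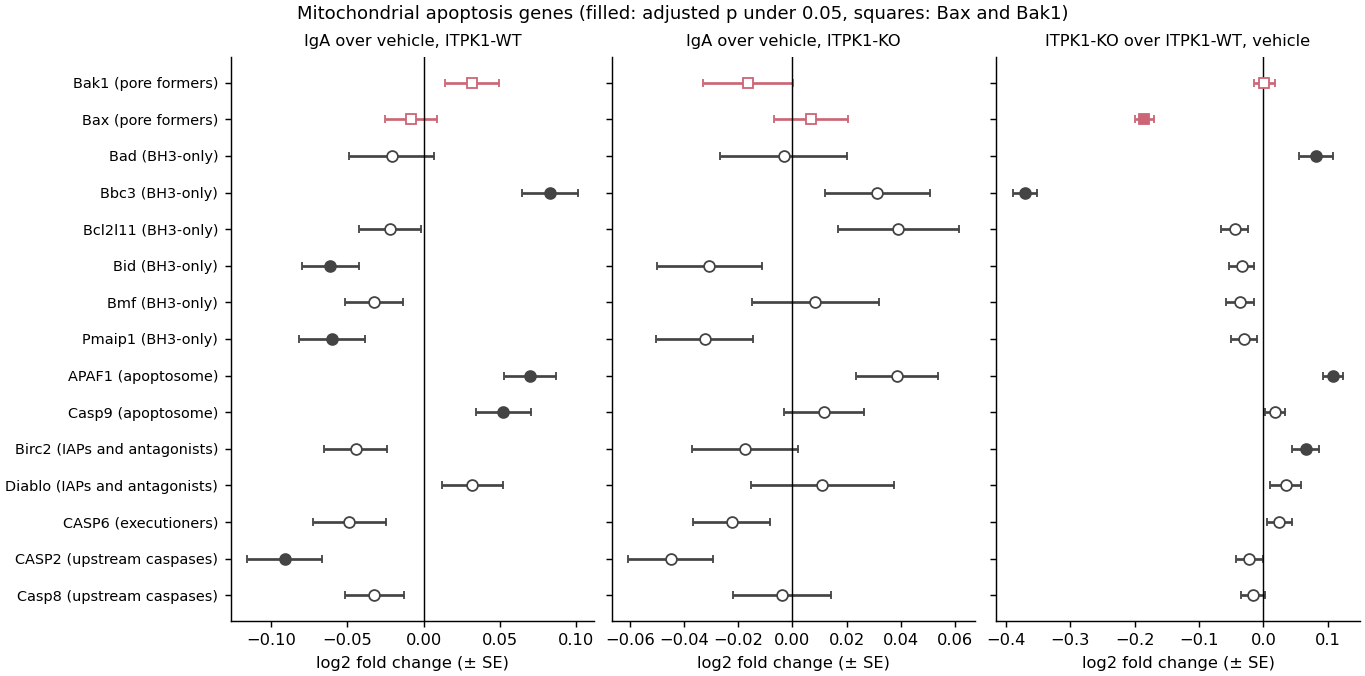
Log2 fold changes (horizontal axis, bars are the SE; the panels have different scales) of 15 mitochondrial apoptosis genes of the library, Bax and Bak1 included, with the role of each in brackets, for IgA over vehicle in each background and for ITPK1-KO over ITPK1-WT in vehicle mice. Filled symbols passed an adjusted p of 0.05 and red squares are Bax and Bak1. Bax is filled only in the right panel, at −0.18, where Bbc3 lies lower at −0.37.

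The genes most like each pore protein over the 16 recovered libraries were found by correlating mean log2 abundance as deviations from the mean of each background. Bbc3 (r = 0.64) and Bad (r = 0.63) were among the 3 nearest to Bax, and Itpk1 (r = 0.67), Casp11 (r = 0.66) and Diablo (r = 0.63) to Bak1. Bax and Bak1 themselves had r = 0.034, the 41st highest for Bax. The points share libraries and the arms, and the values are given as a description.

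The authors' deposited table of MAGeCK scores gave no FDR under 0.05 to any sgRNA in ITPK1-WT cells. Bak1 sg-1 had a log2 fold change of 0.29 in that authors' deposited table, the 18th smallest p of 252 sgRNAs and an FDR of 0.998, and the 6 sgRNAs all had that FDR. Bax sg-3, which edgeR called lower, had a fold change of −0.025 there and the 187th smallest p. For ITPK1-KO cells the authors' deposited table gave Bak1 sg-1 a fold change of 0.14 (p = 0.043, FDR = 0.58) and Bak1 sg-2 one of −0.099 (FDR = 0.81), and it listed 12 sgRNAs of other targets with an FDR under 0.05.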

How the data were processed

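Read counts per sgRNA were analysed in 16 libraries from 8 mice and 2 from before injection. The deposited counts are whole reads, and the arm of each mouse, the cells sorted and the sgRNA sequences (other units) come from the legend and library tables that the authors deposited. Only reads that matched an sgRNA of the library without mismatch were counted, and MAGeCK RRA 0.5.6 did the scoring, per the design text (the submitters' processing notes name MAGeCK too). Which aligner was used is not given in the sources used here. For each sgRNA and background, MAGeCK tables deposited by the authors list a log2 fold change with its p-value and FDR (a fraction). Joined per-sample values in 4 columns of those tables were not used.

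Counts were fitted in R 4.3.3 with edgeR 4.0.16 (TMM, 10 reads or more on average per sgRNA, quasi-likelihood test, Benjamini-Hochberg, threshold 0.05), over all sgRNAs or over counts summed per gene. The IgA effects were fitted per background, and the other 3 comparisons came from 1 fit of 16 libraries. Standard errors and 95% intervals are from limma 3.58.1 on log2 normalised CPM (prior count 2) of the same quantity. Values before injection used 0.5 reads added. Printed CPM used TMM over all 18 libraries. The procedure was tested on simulated data. Pairs of libraries of a group differed by a chi-square per degree of freedom of 2.24 to 5.62, so none was a duplicate. Gene names were matched to GRCm38.p6 for names only, and no build is named for the files, so positions of the target sites are not given.

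Bax, Bak1 and the pathway lists were chosen with earlier results of these data known. Named are Bax, Bak1 and their sgRNAs, pathway genes past the threshold or on a set list (Bid, Bbc3, APAF1, Casp9, Casp8), the 3 most alike genes and neighbours in rank. Some genes that this rule names are not reported here, though counts include them. Further genes are named where they were 5 or fewer under an alternative, chosen after their values were seen. Both libraries of a mouse come from the same animal, so mouse numbers pair them. Their deviations from the group means correlated from −0.084 to 0.26 over 238 sgRNAs. Alternatives were other scalings, DESeq2 1.42.0, count filters, robust dispersion, the sample sheet, the mouse as a replicate block, other gene values, an exact permutation test and each mouse left out.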

Additional observations from a re-analysis of the deposited data

Results flagged for a closer look

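Of the 32 combinations of sgRNA or gene sum with a group of 4 mice, 3 held a mouse that stood apart from the other 3 by more than Dixon's 95% critical value, where chance marks about 1 in 20. Bak1 sg-1 measured 3062 normalised CPM in the ITPK1-KO library of IgA mouse 5, below the 3268 to 3310 of the other IgA mice. The Bax sum measured 14277 in the ITPK1-WT library of IgA mouse 7, below the 14669 to 14700 of the others. The Bak1 sum measured 12105 in the ITPK1-KO library of vehicle mouse 2, above the 11861 to 11864 of the others.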

How the results depend on the processing

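For Bax, Bak1 and their sgRNAs, 344 of 363 tested values kept their direction and their side of the threshold under other settings, and 314 of 344 did with a mouse left out. The lower Bax abundance in ITPK1-KO cells held throughout, from −0.19 to −0.17 in vehicle and from −0.22 to −0.17 in IgA mice, and from −0.19 to −0.18 and −0.19 to −0.17 with a mouse left out. With the mouse as a replicate block, which pairs the libraries of a mouse, Bax had −0.18 in both arms and Bak1 0.0016 and −0.052 (adjusted p = 0.020), and the differences of IgA effects were 0.0081 and −0.053. The block changed no call on either gene or its sgRNAs. Scaled to the non-targeting sgRNAs, the IgA effect in ITPK1-WT cells was 0.043 for Bax and 0.084 for Bak1, the difference of IgA effects −0.022 for Bax, and the ITPK1-KO minus ITPK1-WT value −0.0080 for Bak1 in vehicle mice and −0.038 for Bak1 sg-3 in IgA mice. That scaling gave 70 sgRNAs higher and 6 lower under IgA in ITPK1-WT cells (otherwise 35 and 35) and 17 and 8 in ITPK1-KO cells (14 and 12). In IgA mice it gave 18 sgRNAs higher and 63 lower in ITPK1-KO cells (42 and 46) and 6 and 30 genes (15 and 19), in vehicle mice 11 and 20 genes (17 and 19), and for IgA in ITPK1-KO cells 11 and 3 genes (6 and 4). In the difference of IgA effects it gave 2 and 7 sgRNAs (4 and 6) and 1 and 4 genes (2 and 3).

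Taken as mean log2 over sgRNAs, in limma and in the exact permutation test, the Bax IgA effect in ITPK1-WT cells was 0.014 and its difference −0.0034. With a mean of at least 500 reads Bak1 had −0.0040 in vehicle mice and Bak1 sg-3 −0.0035 in IgA mice. The sample sheet as a term cut called sgRNAs from 70 to 17 and from 26 to 15, and genes from 28 to 10 and from 10 to 5. The exact permutation test called 0 genes in the 3 IgA comparisons, where edgeR called 28, 10 and 5 and had 33, 21 and 10 at an unadjusted p under 0.05. The smallest p that the permutation test could give was 0.029. After adjustment over 76 genes, it could call a gene only if most genes reached that p. Its 0 calls thus say nothing about the calls of edgeR. With a mouse left out, sgRNAs called under IgA in ITPK1-WT cells ran from 45 (without mouse 7) to 94 and genes from 17 (without mouse 7) to 32, and sgRNAs called in the difference from 8 to 17 (without mouse 6).

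Leaving out a mouse changed a sign or call for these values, beside the lost or gained calls given with single results above: Bax under IgA in ITPK1-WT cells −0.013 to 0.0036, its difference −0.0042 to 0.016, Bak1 between backgrounds −0.0049 to 0.0097 in vehicle and −0.065 to −0.047 in IgA mice, Bax sg-1 between backgrounds in vehicle mice −0.12 to −0.057, Bax sg-1 and Bak1 sg-3 under IgA in ITPK1-KO cells −0.0079 to 0.060 and −0.039 to 0.0091, Bax sg-2 in the difference −0.040 to 0.0072, and Bak1 sg-3 between backgrounds in IgA mice −0.023 to 0.023. Change since injection as a share of all reads in ITPK1-KO cells was −0.045 and −0.030 for Bax and −0.030 and −0.040 for Bak1, and the difference before injection −0.094 and 0.054. Where no construction of the alternative shows it, the cause was not tested. At this depth and number of mice, the 95% intervals of the IgA effects on both sums spanned −0.054 to 0.071 under TMM scaling, and on the non-targeting scale the Bak1 effect in ITPK1-WT cells, 0.084, lay outside that span.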

Other observations

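Not all sgRNAs of a pore gene varied together over the recovered libraries. As deviations from the mean of each background over 16 recovered libraries, Bax sg-1 and sg-3 had r = −0.72, Bax sg-2 and sg-3 r = −0.53 and Bak1 sg-1 and sg-2 r = −0.54, whereas Bax sg-1 and sg-2 had r = 0.34. Over the 228 pairs of sgRNAs against the same gene the median r was 0.13, with a 10th percentile of −0.46, and 4 pairs were at or below the value of Bax sg-1 and sg-3. The points share libraries and arms, so the deviations include any difference between vehicle and IgA mice. Reads of a library also sum to a fixed total, and these values are a description.

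The spread among the 3 sgRNAs of Bak1 was wide for the IgA effect in both backgrounds. Its range, highest less lowest log2 fold change, was 0.24 in ITPK1-WT cells, the 11th widest of 76 genes, and 0.20 in ITPK1-KO cells, the 6th widest, against medians of 0.11 and 0.090. For Bax the ranges were 0.18 (18th) and 0.079 (47th). Between backgrounds in IgA mice the 3 Bax sgRNAs lay within 0.046 of each other, where the median gene spanned 0.12.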
